A study of Mus musculus with 18 samples.

Results

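CD8 T cells labelled as lacking Ebi3 were compared with CD4 T cells of the same genotype label, both after 72 h of stimulation in culture. The comparison rests on 6 of the 18 libraries of the series, 3 labelled CD8+ and 3 labelled CD4+, which were taken by their labels alone, and it runs across all genes counted. The cells were sorted from mouse spleen by antibody staining. They were stimulated with anti-CD3 bound to the plate and anti-CD28, each at 2 µg/ml, plus 10 ng/ml of IL-2, a treatment that engages the T cell receptor and its costimulator and feeds the dividing cells. The mice of these 6 libraries carried Foxp3 YFP/cre and Ebi3-/-, and are called CD8 KO and CD4 KO below. The 6 libraries labelled CD8 WT and CD4 WT, given beside them, came from mice with Foxp3 YFP/cre alone, so the reporter in Foxp3, the gene that defines regulatory T cells (Treg), was common to all groups. The labels leave unsaid whether the CD4 sort left out Foxp3+ cells. They also do not say if each replicate was its own animal or culture, and the p-values then reflect the spread among these libraries alone, which may be technical.

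CD8 T cells recognise peptides on MHC class I and kill the cells that show them, mainly with perforin and granzymes released from granules. CD4 T cells recognise peptides on MHC class II and direct other cells through cytokines and through CD40 ligand. In the thymus the transcription factor ThPOK, encoded by Zbtb7b, promotes the CD4 lineage and Runx3 the CD8 lineage, and mature cells keep the coreceptor of their lineage. Ebi3 encodes a subunit of the cytokines IL-27 and IL-35.

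RNA was counted by 3' tags with unique molecular identifiers, 1 tag per transcript end, and total counts were 1819035, 1915566 and 2077358 in CD8 KO replicates 1 to 3, against 2255950, 1874249 and 2109959 in CD4 KO replicates 1 to 3. Levels are in CPM, counts scaled to a common library size by TMM, and 3 counts in a library stand for 1.36 to 2.24 CPM over the 12 CD8 and CD4 libraries. On the first principal component of these 12 libraries (30.2% of the variance) the CD8 libraries lay between -27.71 and -7.337 and the CD4 libraries between 12.97 and 27.89. RNA of other spleen cells was present in every library. The 22 B cell markers summed to 11720, 10390 and 13990 CPM in CD8 KO libraries, against 8253, 11040 and 8875 CPM in CD4 KO libraries, with none at 0, and their part in the results was not tested.

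The coreceptors followed the cell type labels. Cd8a, the alpha chain of the CD8 coreceptor (GRCm38 chr6:71373427-71379173), had 162.6, 184.5 and 145.8 CPM in CD8 KO libraries, against 0.455, 1.07 and 0.966 CPM in CD4 KO libraries. Cd8b1, the beta chain, had 130.7, 153.5 and 140.0 CPM in CD8 KO, against 5.0, 6.99 and 12.1 CPM in CD4 KO. The groups stood far apart for both chains, with log2 fold changes (CD8 over CD4, also below) of 7.54 for Cd8a (SE 0.31, edgeR adjusted p = 1.55e-12) and 4.13 for Cd8b1 (SE 0.26, edgeR adjusted p = 1.23e-08). Cd8a had 5 counts in the 3 CD4 KO libraries together, and an SE on so few counts, here and below, can be too small. Cd4, the CD4 coreceptor, had 0.0, 0.0 and 0.488 CPM in CD8 KO, against 162.8, 109.6 and 133.8 CPM in CD4 KO. That is 1 count in the 3 CD8 KO libraries and 839 in the 3 CD4 KO libraries, a CD4 over CD8 ratio of 789 with a 95% exact interval of 141 to 31200 that covers counting error only.

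Of 14 CD8 coreceptor and lineage genes 13 were tested, with 8 higher in CD8 KO, 1 lower and 4 not past the threshold. The median log2 fold change was 0.97, against 0.01 over all genes tested. The 8 include Cd8a and Cd8b1, the coreceptor that the cell type label names. The lineage factors Zbtb7b and Runx3 moved far less than the coreceptors. Zbtb7b had 35.3, 30.5 and 31.2 CPM in CD8 KO, against 56.8, 52.1 and 43.0 CPM in CD4 KO. The groups did not overlap, and the log2 fold change was -0.65 (SE 0.17, edgeR adjusted p = 0.0346). Runx3 had 282.8, 301.7 and 248.3 CPM in CD8 KO, against 226.9, 167.6 and 204.3 CPM in CD4 KO, also without overlap, for a log2 fold change of 0.47 (SE 0.13, edgeR adjusted p = 0.0466). Both calls hung on single libraries. Zbtb7b lost its call when any library other than CD4 KO replicate 3 was left out (adjusted p up to 0.196), and Runx3 when CD8 KO replicate 1 or 2 or CD4 KO replicate 2 or 3 was left out (adjusted p up to 0.204).

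Ebi3 itself was counted in all KO libraries, at 28.1, 24.7 and 34.6 CPM in CD8 KO and at 21.4, 26.9 and 23.2 CPM in CD4 KO. These levels overlapped between the cell types and did not differ past the threshold (log2 fold change 0.30, SE 0.20, edgeR adjusted p = 0.538). The WT libraries had 29.8, 28.5 and 30.3 CPM in CD8 and 61.9, 40.2 and 40.4 CPM in CD4. CD8 KO thus overlapped CD8 WT, while CD4 KO lay below CD4 WT. The sources used here do not give the deleted part of the gene, and a 3' tag outside it would check nothing, so the genotype rests on the labels. Foxp3 had 0 counts in each CD8 KO library and 0.0, 0.537 and 0.483 CPM in CD4 KO, under the level of 3 counts in every one.

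**Figure D1:**
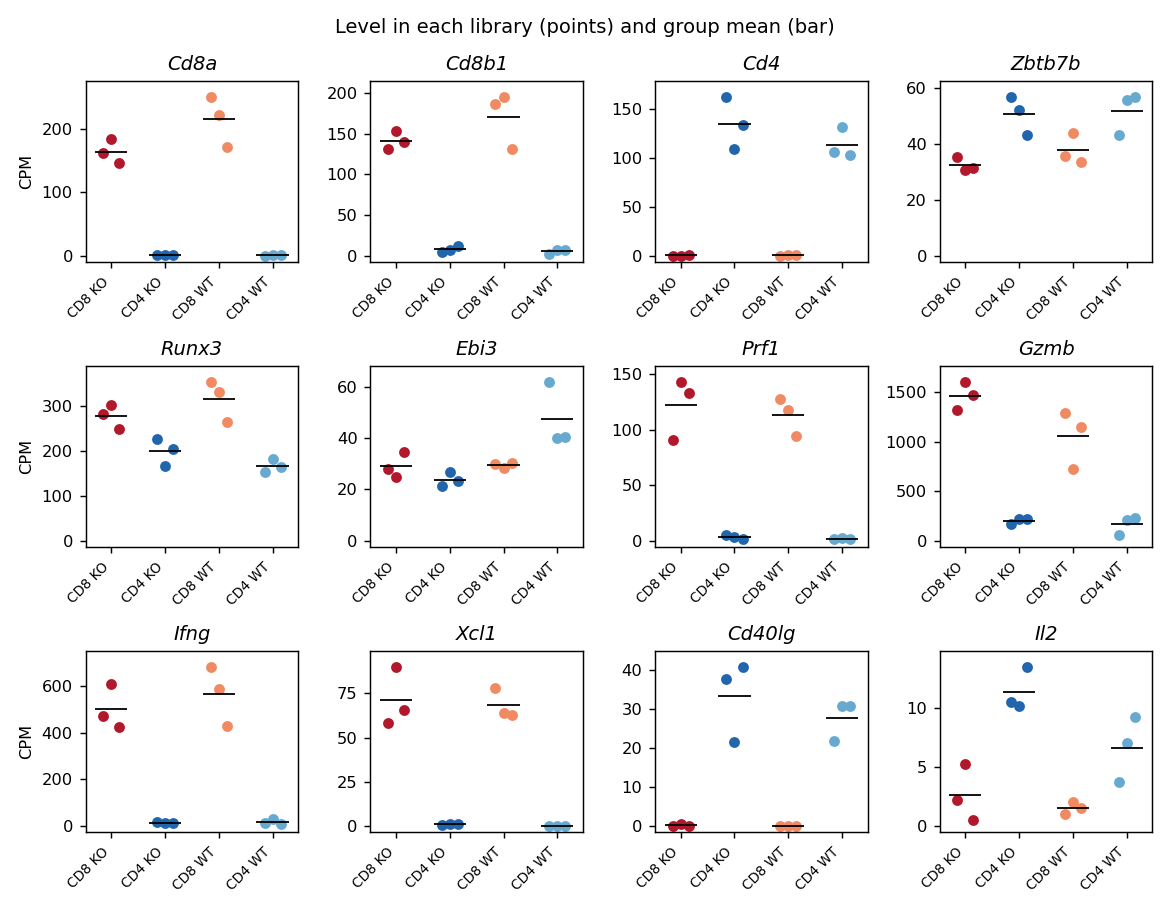
Level in CPM (vertical axis, each from 0) of 12 genes in each library of CD8 KO, CD4 KO, CD8 WT and CD4 WT (points), with the group mean (bar, 3 libraries each). Cd8a, Cd8b1, Prf1, Gzmb, Ifng and Xcl1 stand high in both CD8 groups and Cd4 and Cd40lg in both CD4 groups, while the levels of Runx3, Zbtb7b and Ebi3 lie closer together in KO.

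Across the 11276 genes tested, 361 (3.2%) differed between CD8 KO and CD4 KO by edgeR's quasi-likelihood test at a Benjamini-Hochberg adjusted p under 0.05. Of these, 117 genes (1.04%) were higher in CD8 KO and 244 (2.16%) were lower. Counts of list members in the text are to be read beside these shares. In all 361 the libraries of the cell types did not overlap, which also held for 9.39% (CD8 KO above) and 11.0% (CD8 KO below) of all genes tested. The higher genes were fewer but moved further, since their median log2 fold change was 1.43, against -1.01 for the lower ones and 0.01 for all genes tested. A difference of more than 8-fold was fitted for 23 of the higher and 18 of the lower genes, and of more than 2-fold for 76 of the higher and 123 of the lower. Of the calls, 108 of the 117 higher and 220 of the 244 lower genes were protein coding. Zbtb7b, Tnfrsf9 and Junb, named below, overlap genes on the other strand (Gm15417, Camta1 and Prdx2) and Ptpn22 a gene on the same strand (Gm15472), and counts of such pairs are uncertain. The number of calls fell to 223 without CD8 KO replicate 1, 230 without CD8 KO replicate 2, 218 without CD8 KO replicate 3, 202 without CD4 KO replicate 1 and 203 without CD4 KO replicate 3.

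**Figure D2:**
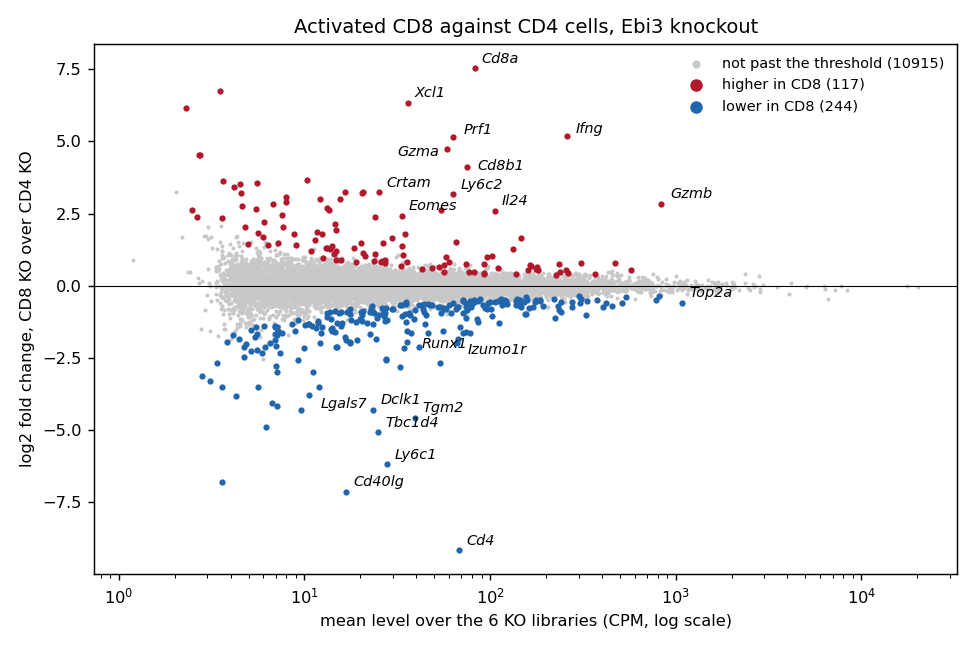
Log2 fold change of CD8 KO over CD4 KO (vertical axis) against the mean level over the 6 KO libraries (CPM, log axis) for the 11276 genes tested, with 117 higher genes in red, 244 lower genes in blue and the rest in grey. The highest fold changes belong to coreceptor, cytotoxic and cytokine genes, and the fitted value of a gene with 0 to 3 counts in a group, Cd4 and Cd40lg among them, depends on the prior count of the fit.

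Prf1, Gzma and Gzmb, genes of the killing granule, were higher in CD8 KO. Of 26 cytotoxic granule and killing genes 19 were tested, and 9 were higher in CD8 KO, 0 were lower and 10 did not pass the threshold (median log2 fold change 0.44, against 0.01 over all genes tested). Prf1, which encodes the pore-forming perforin, had 91.0, 143.0 and 133.2 CPM in CD8 KO, against 5.46, 3.22 and 1.45 CPM in CD4 KO. The log2 fold change was 5.14 (SE 0.28, edgeR adjusted p = 2.76e-10). Gzma, the tryptase granzyme A, had 56.8, 160.8 and 123.9 CPM in CD8 KO, against 5.46, 3.22 and 3.86 CPM in CD4 KO, for a log2 fold change of 4.73 (SE 0.40, edgeR adjusted p = 5.55e-06). CD8 KO replicate 1 was the lowest of its group for both genes and still stood above every CD4 KO library.

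Gzmb, granzyme B, a protease that starts apoptosis in the target cell, was counted in both cell types. It had 1317, 1602 and 1471 CPM in CD8 KO, against 169.6, 218.7 and 223.1 CPM in CD4 KO (log2 fold change 2.85, SE 0.36, edgeR adjusted p = 9.14e-04). Every CD8 KO library stood far above every CD4 KO library. Gzmc, another granzyme of the same gene cluster, had 30 counts in CD8 KO and 1 in CD4 KO, a CD8 over CD4 ratio of 31.9 (95% exact interval 5.3 to 1300, counting error only), and granzymes of that cluster are similar enough that reads could be split between them. Tnfsf10, the death ligand TRAIL, had 14.3, 25.2 and 18.5 CPM in CD8 KO, against 5.91, 3.22 and 7.24 CPM in CD4 KO (log2 fold change 1.80, SE 0.32, edgeR adjusted p = 0.00154). Fasl, the other death ligand of the list, did not pass, at -0.36 (SE 0.38, adjusted p = 0.732), nor did the granule proteoglycan Srgn, at -0.05 (SE 0.13, adjusted p = 0.901).

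Promoters of 4 of these genes, the cytotoxic Prf1, Gzma and Gzmb and the chemokine gene Xcl1 described below, are shown because they were higher in CD8 KO and each holds the core letters of the RUNX motif, and they were chosen after their letters were seen. Each is the 300-base window of RefSeq on GRCm38.p6, from 250 bases before the start of the gene to 50 after it, written along the strand of the gene. Capitals mark matches on either strand to TGTGGT (RUNX), GGTGTGA (T-box) and TGANTCA (AP-1). None of the marked matches overlaps another.
Prf1, chr10:61297586-61297885, plus strand: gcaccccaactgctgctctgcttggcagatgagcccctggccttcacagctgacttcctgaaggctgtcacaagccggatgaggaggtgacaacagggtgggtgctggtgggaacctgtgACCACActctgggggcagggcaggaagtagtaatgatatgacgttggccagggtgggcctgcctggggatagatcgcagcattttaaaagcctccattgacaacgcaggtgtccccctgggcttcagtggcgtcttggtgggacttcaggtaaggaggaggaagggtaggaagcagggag
Gzma, chr13:113100932-113101231, minus strand: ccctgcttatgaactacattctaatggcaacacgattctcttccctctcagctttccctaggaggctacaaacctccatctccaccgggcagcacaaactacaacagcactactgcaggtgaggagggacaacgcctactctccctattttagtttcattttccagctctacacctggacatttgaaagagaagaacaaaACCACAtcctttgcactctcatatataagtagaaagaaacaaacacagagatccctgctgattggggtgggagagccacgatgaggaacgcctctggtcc
Gzmb, chr14:56262285-56262584, minus strand: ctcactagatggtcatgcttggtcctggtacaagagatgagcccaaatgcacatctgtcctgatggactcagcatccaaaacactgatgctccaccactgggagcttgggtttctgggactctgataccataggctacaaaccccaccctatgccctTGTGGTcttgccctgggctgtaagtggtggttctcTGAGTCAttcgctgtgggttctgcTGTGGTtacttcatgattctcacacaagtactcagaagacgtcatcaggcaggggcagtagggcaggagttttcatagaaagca
Xcl1, chr1:164935473-164935772, minus strand: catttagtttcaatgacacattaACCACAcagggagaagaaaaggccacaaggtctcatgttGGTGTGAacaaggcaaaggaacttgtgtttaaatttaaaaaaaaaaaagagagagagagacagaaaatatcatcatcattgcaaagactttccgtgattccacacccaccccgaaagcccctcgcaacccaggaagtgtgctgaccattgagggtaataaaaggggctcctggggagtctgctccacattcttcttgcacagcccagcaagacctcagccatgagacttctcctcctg

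In these windows the RUNX letters began 130 bases before the start in Prf1, 50 in Gzma, 93 and 34 in Gzmb and 227 in Xcl1. Gzmb also held the AP-1 letters 58 bases before its start and Xcl1 the T-box letters 188 bases before its start. Of the genes higher in CD8 KO with a promoter in the table, 27 of 86 (31.4%) held TGTGGT, against 30 of 180 (16.7%) of the lower genes and 1257 of 8182 (15.4%) of all genes tested. The AP-1 letters stood in 17.4% of the higher genes, 10.0% of the lower and 5.68% of all tested, and the T-box letters in 10.5%, 4.44% and 3.98% in the same order. AGATAA, the GATA letters, stood in 9.3% of the higher genes, 11.1% of the lower and 7.46% of all tested. A gene was counted where any of its listed promoters held the letters, so genes with several promoters had more room for a match. Cd8a, Ifng and Eomes, also higher in CD8 KO, held none of these letters, while Klrk1 and Pak6 held TGTGGT. Runx1, Dclk1, Stra6 and Capn3, lower in CD8 KO, held TGTGGT in a listed promoter too. These shares are descriptions with no test, and a match is not a binding site.

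RNA of interferon gamma and of 3 chemokines was higher in CD8 KO. Ifng, the type 1 cytokine that activates macrophages, had 472.5, 610.2 and 426.3 CPM in CD8 KO, against 15, 13.4 and 13 CPM in CD4 KO. The log2 fold change was 5.18 (SE 0.30, edgeR adjusted p = 8.98e-08), with the caution that the predicted gene Gm49751 overlaps Ifng on the same strand. Xcl1, lymphotactin, which attracts cross-presenting dendritic cells, had 58.4, 89.9 and 65.4 CPM in CD8 KO, against 0.455, 1.07 and 0.966 CPM in CD4 KO (log2 fold change 6.34, SE 0.34, edgeR adjusted p = 5.6e-10). Of 14 T cell chemokines 4 reached the level needed for a test, and 3 were higher in CD8 KO. Besides Xcl1 these were Ccl3 (log2 fold change 3.23, SE 0.44, adjusted p = 2.37e-04) and Ccl4 (1.81, SE 0.24, adjusted p = 9.48e-05), which both encode inflammatory chemokines. Ccl5, another inflammatory chemokine, averaged 15.8 CPM in CD8 KO and 18.8 CPM in CD4 KO (log2 fold change -0.25, SE 0.24, adjusted p = 0.691).

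Among 16 tested cytokines of 27 listed, 4 were higher in CD8 KO, 2 were lower and 10 did not pass (median log2 fold change 0.09, against 0.01 over all genes tested). Il24, a cytokine of the IL-10 family, had 185.3, 237.6 and 122.9 CPM in CD8 KO, against 18.2, 31.7 and 40.1 CPM in CD4 KO (log2 fold change 2.60, SE 0.26, edgeR adjusted p = 2.97e-05). Il10, the anti-inflammatory founder of that family, had 13.8, 11.0 and 20.5 CPM in CD8 KO, against 5.46, 6.99 and 7.24 CPM in CD4 KO (log2 fold change 1.21, SE 0.29, adjusted p = 0.0202). Osm, oncostatin M, followed at 0.87 (SE 0.22, adjusted p = 0.0349). Il10 lost its call without CD8 KO replicate 3 or any CD4 KO library (adjusted p up to 0.192), and Osm without any library but CD8 KO replicate 3 (adjusted p up to 0.192). Il23a, the p19 subunit of IL-23 and listed with the relatives of Ebi3, was also higher in CD8 KO, at 10.5, 10.5 and 3.9 CPM, against 0.455, 0.537 and 0.966 CPM in CD4 KO (log2 fold change 3.52, SE 0.66, adjusted p = 0.00297).

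The 2 cytokines of the list that were lower in CD8 KO were Il2 and Il5. Il2, the T cell growth factor, had 2.21, 5.26 and 0.488 CPM in CD8 KO, against 10.5, 10.2 and 13.5 CPM in CD4 KO (log2 fold change -2.10, SE 0.45, edgeR adjusted p = 0.009), and lost its call without CD8 KO replicate 1 or 3 or CD4 KO replicate 3 (adjusted p up to 0.0615). Il5, the eosinophil growth factor, had 1.65, 2.1 and 1.46 CPM in CD8 KO, against 10.0, 8.06 and 7.73 CPM in CD4 KO (log2 fold change -2.27, SE 0.39, adjusted p = 0.00121). Both stand near the level of 3 counts in CD8 KO libraries. Il13, also a type 2 cytokine, averaged 69.4 CPM in CD8 KO and 60.6 CPM in CD4 KO and did not pass (log2 fold change 0.18, SE 0.17, adjusted p = 0.695). Tnf (-0.22, SE 0.20, adjusted p = 0.673) and Csf2 (-0.26, SE 0.52, adjusted p = 0.871) did not pass either.

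The type 1 program was divided. Of 19 listed genes 14 were tested, with 5 higher in CD8 KO, 2 lower and 7 not past the threshold (median log2 fold change 0.23). Il18r1, a chain of the IL-18 receptor, was higher in CD8 KO at 13.8, 9.99 and 12.2 CPM, against 1.82, 1.07 and 1.93 CPM in CD4 KO (log2 fold change 2.83, SE 0.39, edgeR adjusted p = 1.19e-04). Bhlhe40, a cofactor of cytokine production, was lower at -0.99 (SE 0.21, adjusted p = 0.0202), a call lost without CD8 KO replicate 1 or 3 or CD4 KO replicate 1 or 3 (adjusted p up to 0.0939). Of the T-box factors, Eomes had 52.9, 61.5 and 55.1 CPM in CD8 KO, against 13.6, 9.13 and 8.21 CPM in CD4 KO (log2 fold change 2.43, SE 0.26, adjusted p = 4.34e-06). Tbx21, which encodes T-bet, averaged 31.2 CPM in CD8 KO and 49.7 CPM in CD4 KO and did not pass (log2 fold change -0.68, SE 0.23, adjusted p = 0.157).

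Surface receptors of the killer lectin group were counted mostly in CD8 KO. Of 26 genes of this group and related activating receptors 8 were tested, and 5 were higher in CD8 KO, 0 were lower and 3 did not pass (median log2 fold change 1.47). Klrd1, which encodes CD94, had 8.27, 30 and 19 CPM in CD8 KO, against 1.36, 1.61 and 1.45 CPM in CD4 KO (log2 fold change 3.65, SE 0.52, edgeR adjusted p = 2.37e-04). Its partner Klrc1 (NKG2A, 2.46, SE 0.48, adjusted p = 0.00436) and the activating receptor Klrk1 (NKG2D, 2.62, SE 0.37, adjusted p = 1.85e-04) moved the same way. Crtam, an adhesion receptor of activated CD8 cells, had 38.6, 51.0 and 46.8 CPM in CD8 KO, against 4.55, 6.99 and 2.9 CPM in CD4 KO (log2 fold change 3.25, SE 0.26, adjusted p = 8.98e-08). These receptors are also carried by natural killer cells. Ncr1, a defining natural killer gene, had 0 counts in every CD8 KO library and 0.0, 0.537 and 0.0 CPM in CD4 KO, and Klrb1c had 0.0, 1.05 and 1.46 CPM in CD8 KO and 0.455, 1.61 and 0.0 CPM in CD4 KO. The 15 natural killer and innate-like T cell markers summed to 100.3, 108.3 and 112.2 CPM in CD8 KO and 51.39, 45.13 and 40.08 CPM in CD4 KO, with 4 of them at 0 in CD8 KO and 5 at 0 in CD4 KO. Of that list 2 genes were tested, both with a positive log2 fold change (0.44 and 2.43), and 1, Eomes, was higher. The sums include Eomes, which alone had 52.9, 61.5 and 55.1 CPM in CD8 KO and 13.6, 9.13 and 8.21 CPM in CD4 KO. Eomes made up only part of each sum, and the remainder was also higher in each CD8 KO library than in any CD4 KO library. The part of natural killer or innate-like cells in these values was not tested.

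Further genes among the largest rises belonged to no single group. Ly6c2, a surface protein of memory CD8 cells, was higher in CD8 KO, at 129.6, 125.6 and 86.3 CPM, against 12.7, 14.5 and 10.6 CPM in CD4 KO (log2 fold change 3.17, SE 0.19, edgeR adjusted p = 8.37e-10). Its near-identical neighbour Ly6c1 went the other way, at 0.551, 0.526 and 0.976 CPM in CD8 KO, against 30.9, 63.9 and 71.0 CPM in CD4 KO (log2 fold change -6.18, SE 0.57, adjusted p = 4.13e-06), and how reads were shared between such similar genes is not given in the sources used here. Lilrb4a, an inhibitory receptor, rose by 3.24 (SE 0.35, adjusted p = 6.86e-06) and overlaps Gm49339 on the same strand. Pak6, a kinase, and Dlc1 rose by 3.43 (SE 0.59, adjusted p = 0.00117) and 3.23 (SE 0.62, adjusted p = 0.00343), and both lay under 2 CPM in each CD4 KO library. Hemgn, listed with erythroid genes, rose by 2.65 (SE 0.44, adjusted p = 9.27e-04), at 8.82, 11.0 and 8.78 CPM in CD8 KO and 2.27, 1.61 and 0.483 CPM in CD4 KO. Hemoglobin genes, which define that cell type, summed to 1089, 1001 and 1493 CPM in CD8 KO and to 775.4, 1015 and 905.4 CPM in CD4 KO. Their part in the Hemgn value was not tested.

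Cd40lg, Runx1 and Tox, genes of the CD4 lineage, were lower in CD8 KO. Of 18 CD4 coreceptor and lineage genes, all tested, 10 were lower, 0 were higher and 8 did not pass. The median log2 fold change was -0.78, against 0.01 over all genes tested. The 10 include Cd4 itself, the coreceptor that the cell type label names. Cd40lg, the CD40 ligand with which helper cells activate B cells and dendritic cells, had 0.0, 0.526 and 0.0 CPM in CD8 KO, against 37.7, 21.5 and 40.6 CPM in CD4 KO. This is 1 count against 207, a CD4 over CD8 ratio of 195 with a 95% exact interval of 34.6 to 7730 (counting error only). Runx1, a relative of Runx3, had 13.8, 18.9 and 21.5 CPM in CD8 KO, against 49.6, 53.2 and 67.1 CPM in CD4 KO (log2 fold change -1.64, SE 0.20, edgeR adjusted p = 1.81e-05), the opposite direction to Runx3. Tox, a nuclear factor needed for CD4 cell development, had 6.06, 7.88 and 2.93 CPM in CD8 KO, against 28.6, 17.2 and 26.1 CPM in CD4 KO (log2 fold change -2.11, SE 0.39, adjusted p = 0.00343). Tcf7, a factor of naive and helper cells, missed the threshold at -0.96 (SE 0.28, adjusted p = 0.0932), as did Ctla4 at -0.75 (SE 0.27, adjusted p = 0.195).

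The remaining largest falls came from varied functions. Tbc1d4, a Rab regulator of glucose transporter traffic, had 3.31, 0.0 and 0.976 CPM in CD8 KO, against 65.0, 37.1 and 43.0 CPM in CD4 KO (log2 fold change -5.07, SE 0.47, edgeR adjusted p = 3.99e-06). Tgm2, tissue transglutaminase, had 0.551, 5.78 and 2.93 CPM in CD8 KO, against 59.6, 69.9 and 97.5 CPM in CD4 KO (log2 fold change -4.57, SE 0.37, adjusted p = 4.1e-07). It overlaps Rprd1b on the other strand, which had more counts in all, and the strand setting of the counting is not given in the sources used here. Dclk1, a kinase known from neurons, was lower at -4.29 (SE 0.42, adjusted p = 4.34e-06) and the growth factor Fgf2 at -4.29 (SE 0.51, adjusted p = 1.68e-05), the second overlapping Nudt6 on the other strand. Stra6, the receptor of retinol-binding protein, fell by 4.17 (SE 0.47, adjusted p = 8.43e-06). Lgals7, a galectin, fell by 3.79 (SE 0.33, adjusted p = 2.78e-07), and the protease gene Capn3, which overlaps Ganc on the same strand, fell by 3.49 (SE 0.59, adjusted p = 9.59e-04). Rtkn2 had 2 counts in CD8 KO and 76 in CD4 KO, a CD4 over CD8 ratio of 35.7 (95% exact interval 9.56 to 300).

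Genes named for regulatory T cells did not move as one. Of 25 Treg identity genes 19 were tested, with 2 higher in CD8 KO, 4 lower and 13 not past the threshold (median log2 fold change 0.11). Izumo1r, the folate receptor FR4, had 27, 30 and 22.9 CPM in CD8 KO, against 123.2, 96.2 and 98.0 CPM in CD4 KO (log2 fold change -1.99, SE 0.20, edgeR adjusted p = 2.25e-06). Gpr83, a G protein-coupled receptor known from Treg cells, had 3 counts in CD8 KO and 50 in CD4 KO, a CD4 over CD8 ratio of 15.7 (95% exact interval 5.06 to 78.6). Tnfrsf4 (OX40) had 254.2, 246.0 and 153.2 CPM in CD8 KO, against 417.9, 398.2 and 504.1 CPM in CD4 KO (log2 fold change -1.02, SE 0.23, adjusted p = 0.0242). Il2ra, the high-affinity IL-2 receptor chain, averaged 752.5 CPM in CD8 KO and 685.3 CPM in CD4 KO (log2 fold change 0.13, SE 0.19, adjusted p = 0.805). In 22 IL-2 receptor and STAT5 feedback genes, 1 (Osm) was higher and 21 did not pass, beside 3.2% called over all genes tested. The OX40 call was lost without CD8 KO replicate 2 or 3 or CD4 KO replicate 1 or 3 (adjusted p up to 0.134).

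Receptors and ligands of the TNF families went in both directions. Of 24 TNF receptor family and costimulator genes 22 were tested, 2 were higher in CD8 KO, 4 lower and 16 not past the threshold (median log2 fold change -0.11). Tnfrsf8 (CD30) had 29.8, 34.7 and 24.9 CPM in CD8 KO, against 9.1, 10.7 and 12.1 CPM in CD4 KO (log2 fold change 1.48, SE 0.22, edgeR adjusted p = 2.18e-04). Tnfrsf9 (4-1BB) had 425.1, 467.2 and 276.6 CPM in CD8 KO, against 231.0, 219.8 and 225.0 CPM in CD4 KO (log2 fold change 0.79, SE 0.20, adjusted p = 0.0445). Tnfrsf25 (DR3) was lower at -2.48 (SE 0.57, adjusted p = 0.0169), Tnfrsf18 (GITR) at -0.55 (SE 0.15, adjusted p = 0.0481) and the adhesion receptor Cd2 at -0.47 (SE 0.10, adjusted p = 0.00753). Of these, the Tnfrsf8 call held without each library in turn. The Tnfrsf9 call was lost without any library but CD8 KO replicate 3 (adjusted p up to 0.144) and the Tnfrsf18 call without any but CD4 KO replicate 2 (up to 0.251). The Tnfrsf25 call was lost without CD8 KO replicate 1 or 3 or CD4 KO replicate 2 (up to 0.0947), and the Cd2 call without CD8 KO replicate 1 or CD4 KO replicate 3 (up to 0.061). Of 17 TNF ligands 9 were tested, with Tnfsf10 higher, Cd40lg and Tnfsf8 lower and 6 not past. Tnfsf8, the ligand of CD30, had 41.4, 44.7 and 25.4 CPM in CD8 KO, against 75.5, 70.9 and 67.6 CPM in CD4 KO (log2 fold change -0.95, SE 0.18, adjusted p = 0.00352), so the ligand was lower and its receptor higher in CD8 KO.

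**Figure D3:**
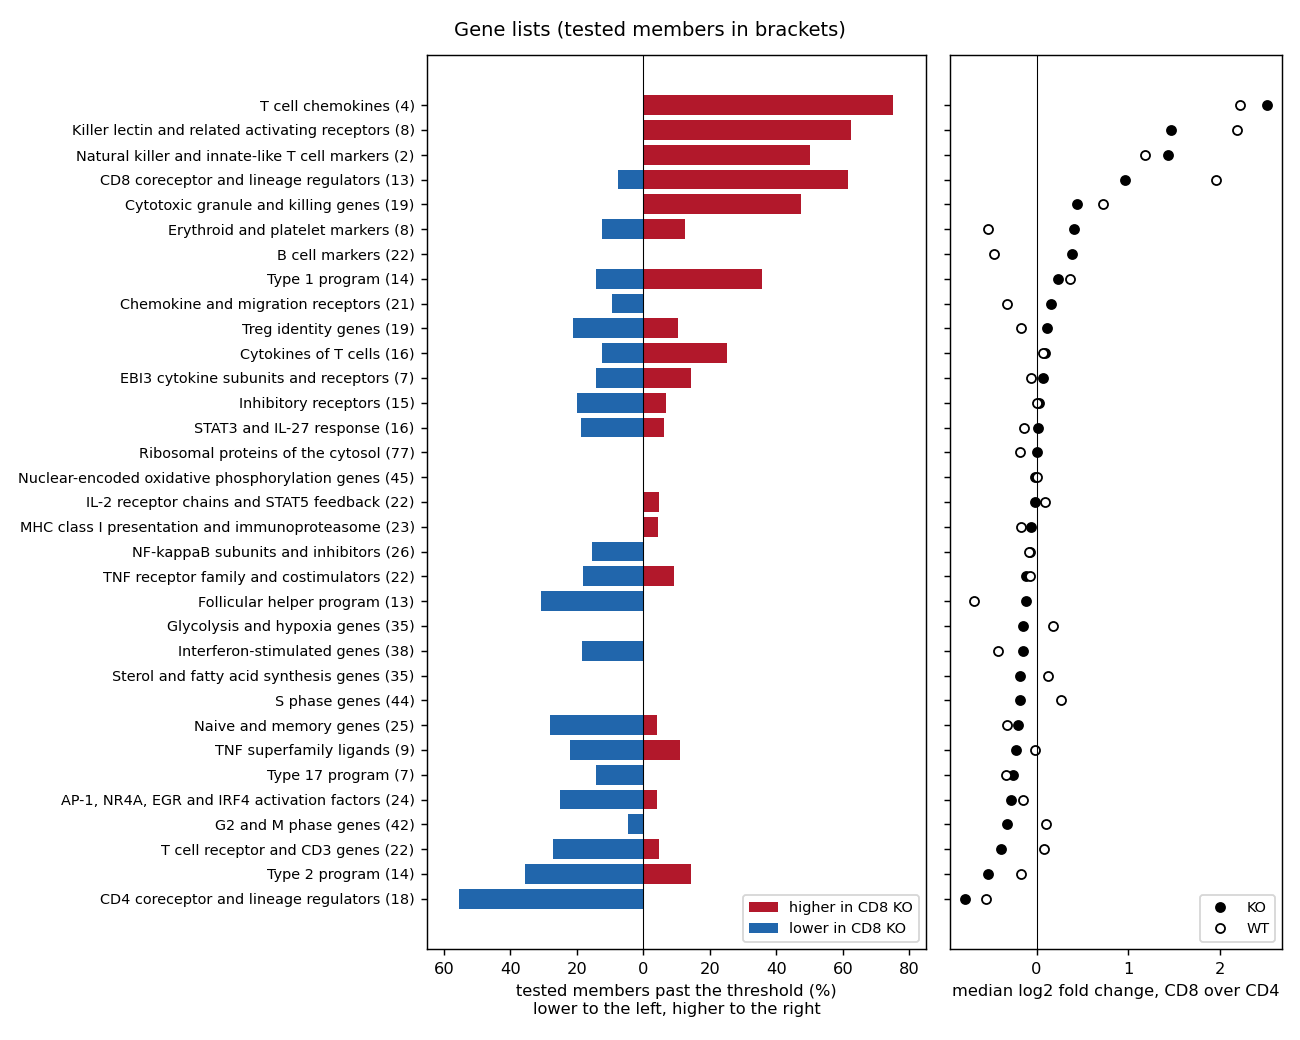
Left, percent of the tested members of most of the gene lists past the threshold, lower in CD8 KO to the left (blue) and higher to the right (red), with the number tested in brackets. Right, median log2 fold change of CD8 over CD4 in KO (filled) and WT (open) libraries, where the T cell chemokine (2.52) and killer lectin (1.47) lists lie highest of those drawn and the CD4 lineage list (-0.78) lowest in KO.

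Among components of T cell receptor signalling, Trat1 and Cd5 were lower in CD8 KO. Of 22 T cell receptor and CD3 genes, all tested, 6 were lower, 1 was higher and 15 did not pass (median log2 fold change -0.39, against 0.01 over all genes tested), and 19 of the 22 had a negative value. The median in WT was 0.08. The summed level of the list was 3662, 3805 and 2974 CPM in CD8 KO, against 4451, 3971 and 4566 CPM in CD4 KO. All 22 B cell markers had a positive value in KO (median 0.39, against -0.46 in WT). CD8 KO replicate 3 had the highest B cell sum and the lowest T cell receptor sum. Other pairs went the other way, since CD4 KO replicate 2 exceeded CD8 KO replicate 2 in both sums and CD4 KO replicate 3 exceeded CD4 KO replicate 1 in both. The part of B cell RNA in these values was not tested. Trat1, an adaptor that binds the receptor complex, had 22.6, 16.8 and 4.39 CPM in CD8 KO, against 134.2, 81.7 and 61.3 CPM in CD4 KO (log2 fold change -2.69, SE 0.44, edgeR adjusted p = 0.00282). It overlaps Gm8670 on the same strand. Cd5, which dampens receptor signals, had 66.7, 74.1 and 57.6 CPM in CD8 KO, against 126.0, 137.0 and 151.6 CPM in CD4 KO (log2 fold change -1.06, SE 0.16, adjusted p = 2.17e-04). Its relative Cd6 (-0.72, SE 0.15, adjusted p = 0.00781) lost its call without CD8 KO replicate 3 (adjusted p = 0.0607), and the kinase gene Zap70 (-0.76, SE 0.19, adjusted p = 0.0361) without any library but CD8 KO replicate 2 (up to 0.217). The phosphatase gene Ptpn22 was the 1 higher member, at 0.44 (SE 0.12, adjusted p = 0.0466), and lost its call without each of the 6 libraries in turn (up to 0.207). Cd3e averaged 64.8 CPM in CD8 KO and 97.8 CPM in CD4 KO without passing (log2 fold change -0.60, SE 0.19, adjusted p = 0.112).

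Factors induced by the receptor were counted as a further list. Of 24 AP-1, NR4A, EGR and IRF4 genes, 6 were lower in CD8 KO, 1 was higher and 17 did not pass (median log2 fold change -0.28). Irf4, whose level follows the strength of the receptor signal, had 116.9, 139.8 and 122.4 CPM in CD8 KO, against 190.5, 217.6 and 229.4 CPM in CD4 KO (log2 fold change -0.75, SE 0.12, edgeR adjusted p = 6.31e-04). Egr2 (-0.84, SE 0.22, adjusted p = 0.0405) and Nr4a3 (-0.78, SE 0.20, adjusted p = 0.0475) lost their calls without each of the 6 libraries in turn (adjusted p up to 0.187 and 0.234). Batf3, an AP-1 family member of dendritic cells and CD8 memory, had 46.9, 65.7 and 32.7 CPM in CD8 KO, against 24.6, 16.1 and 15 CPM in CD4 KO (log2 fold change 1.37, SE 0.25, adjusted p = 0.00321). Over all genes tested 2.16% were lower and 1.04% higher. Of 26 NF-kappaB genes, 4 were lower, 0 were higher and 22 did not pass (median log2 fold change -0.07). They were Ikbke (-1.24, adjusted p = 0.0134), Nfkb2 (-0.51, adjusted p = 0.0361), Tnip1 (-0.50, adjusted p = 0.0428) and Nfkbia (-0.50, adjusted p = 0.00969), a kinase, a subunit and 2 inhibitors of the pathway, and each lost its call without 2 or more single libraries, CD8 KO replicate 3 and CD4 KO replicate 1 among them in all 4 (adjusted p up to 0.12, 0.207, 0.271 and 0.0908 in that order).

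Genes of naive cells and of migration gave more falls than rises. Of 25 naive and memory genes, 7 were lower in CD8 KO, 1 (Ly6c2) was higher and 17 did not pass (median log2 fold change -0.20). Ccr7, the receptor that leads T cells into lymph nodes, had 48.0, 46.8 and 46.8 CPM in CD8 KO, against 116.4, 82.2 and 106.2 CPM in CD4 KO (log2 fold change -1.11, SE 0.21, edgeR adjusted p = 0.005). Igfbp4, an insulin-like growth factor binding protein, had 9.37, 17.3 and 10.7 CPM in CD8 KO, against 39.1, 63.4 and 67.6 CPM in CD4 KO (log2 fold change -2.17, SE 0.27, adjusted p = 5.43e-05). Of 30 chemokine and migration receptors 21 were tested, 2 were lower (Ccr7 and Ccr4), 0 were higher and 19 did not pass (median log2 fold change 0.16). That stands beside 2.16% lower and 1.04% higher over all genes tested. Among 15 tested genes of a list of 21 inhibitory receptors and related genes, Klrc1 was higher and Tox, Cd200 and Cd5 were lower (median log2 fold change 0.03). Cd200, a ligand that restrains myeloid cells, had 77.2, 67.3 and 50.7 CPM in CD8 KO, against 160.1, 150.4 and 164.2 CPM in CD4 KO (log2 fold change -1.29, SE 0.20, adjusted p = 6.98e-04). Pdcd1 (-0.05, SE 0.28, adjusted p = 0.954) and Lag3 (0.36, SE 0.49, adjusted p = 0.799) did not pass.

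Interferon-stimulated genes were lower in CD8 KO where they passed, although CD8 KO held more Ifng RNA. Of 51 listed genes 38 were tested, 7 were lower, 0 were higher and 31 did not pass (median log2 fold change -0.15). Over all genes tested 2.16% were lower and 1.04% higher. Slfn2, a schlafen protein of quiescent T cells, had 101.4, 98.3 and 109.7 CPM in CD8 KO, against 187.8, 168.7 and 255.4 CPM in CD4 KO (log2 fold change -0.98, SE 0.14, edgeR adjusted p = 1.31e-04). Ifih1, the RNA sensor MDA5, had 4.41, 7.36 and 8.29 CPM in CD8 KO, against 20, 17.2 and 17.4 CPM in CD4 KO (log2 fold change -1.43, SE 0.25, adjusted p = 0.00153). Gbp5, a guanylate-binding protein, was lower at -1.30 (SE 0.26, adjusted p = 0.00605) and lost its call without CD4 KO replicate 1 (adjusted p = 0.0566). Of 18 STAT3 and IL-27 response genes 16 were tested, with Il10 higher, and Irf4, Ly6a and Junb lower (median log2 fold change 0.02). Junb lost its call without CD8 KO replicate 1 or 3 or CD4 KO replicate 2 or 3 (adjusted p up to 0.138). Ly6a (Sca-1) had 329.2, 442.5 and 457.0 CPM in CD8 KO, against 558.9, 652.3 and 659.6 CPM in CD4 KO (log2 fold change -0.61, SE 0.11, adjusted p = 0.0024). The relatives of Ebi3, 7 tested of 11, gave 1 higher (Il23a) and 1 lower (Il6ra, the IL-6 receptor, -1.01, SE 0.22, adjusted p = 0.0122), and the Il6ra call was lost without CD8 KO replicate 2 or CD4 KO replicate 1 (up to 0.0738). Il27ra, the IL-27 receptor, averaged 8.26 CPM in CD8 KO and 9.25 CPM in CD4 KO (log2 fold change -0.18, SE 0.33, adjusted p = 0.862).

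The cell cycle lists gave 2 calls among G2 and M phase genes and 0 among S phase genes, beside 3.2% called over all genes tested. Of 42 G2 and M phase genes, all tested, 40 had a negative log2 fold change, and 2 passed the threshold (median -0.32, against 0.01 over all genes tested). Top2a, the topoisomerase of dividing cells, had 892.1, 968.6 and 719.9 CPM in CD8 KO, against 1356, 1177 and 1363 CPM in CD4 KO (log2 fold change -0.59, SE 0.12, edgeR adjusted p = 0.00784). That call was lost without CD8 KO replicate 3 or CD4 KO replicate 3 (adjusted p up to 0.0541). The other, Anln (anillin, a protein of the cleavage furrow, -0.66, SE 0.18, adjusted p = 0.0488), lost its call without each of the 6 libraries in turn (up to 0.183). Summed, the 42 genes reached 4997, 5441 and 4233 CPM in CD8 KO and 6790, 5683 and 6134 CPM in CD4 KO, without overlap. The B cell sums of the same libraries were 11720, 10390 and 13990 CPM in CD8 KO and 8253, 11040 and 8875 CPM in CD4 KO. The library with the lowest G2 and M sum (CD8 KO replicate 3) had the highest B cell sum and the one with the highest (CD4 KO replicate 1) the lowest. This order did not hold throughout, since CD4 KO replicate 2 exceeded CD8 KO replicate 2 in both sums. The part of B cell RNA in the result was not tested. Of 44 S phase genes 38 had a negative value and 0 passed by edgeR, DESeq2 or limma-voom, with 6 at an unadjusted p under 0.05 (median -0.18). The S phase sums overlapped, at 4401, 4663 and 4090 CPM in CD8 KO and 4956, 4642 and 5552 CPM in CD4 KO. In these cultures fewer dividing cells and less such RNA per cell cannot be told apart.

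**Figure D4:**
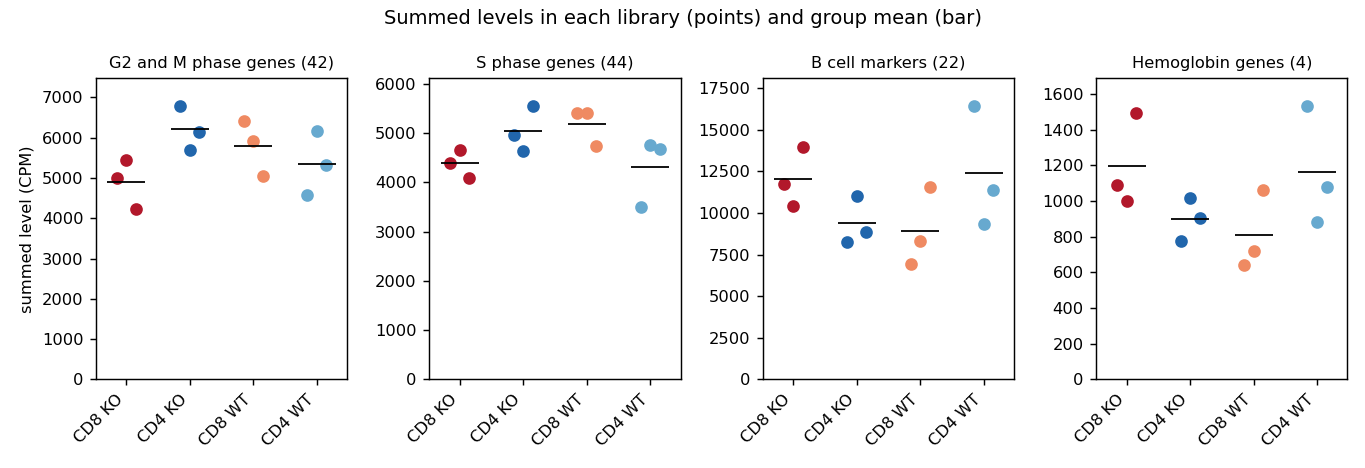
Summed level in CPM (vertical axis, from 0) of G2 and M phase genes, S phase genes, B cell markers and hemoglobin genes in each library of CD8 KO, CD4 KO, CD8 WT and CD4 WT (points), with the group mean (bar, 3 libraries each). The G2 and M sums of CD8 KO, 4233 to 5441 CPM, lie below those of CD4 KO, 5683 to 6790 CPM, and the other sums overlap between CD8 KO and CD4 KO.

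The same cell type contrast in WT libraries, which share no library with the KO contrast, gave 388 genes (3.44%), with 254 higher in CD8 (2.25%) and 134 lower (1.19%). Of the KO calls 32.4% were higher in CD8, and of the WT calls 65.5%. These shares were 45% in KO without CD8 KO replicate 3 and 54.0% in WT (203 higher and 173 lower) without CD4 WT replicate 1, which had the fewest counts of the 12 libraries (1358671) and the highest B cell sum (16440 CPM). The calls shared between the genotypes were 88 higher genes, which are 75.2% of those of KO and 34.6% of those of WT, and 78 lower genes, which are 32.0% of those of KO and 58.2% of those of WT. No gene was called in opposite directions (0 genes). Of the KO calls, 105 of the 117 higher and 221 of the 244 lower had the same sign in WT, where their medians were 1.57 and -0.52. The WT count was moved by more than 1.5 times by single libraries, to 737 without CD8 WT replicate 3, 223 without CD8 WT replicate 1, 183 without CD8 WT replicate 2 and 213 without CD4 WT replicate 3.

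Whether the CD8 to CD4 difference itself differed between KO and WT was tested as an interaction across all 11276 genes. It passed for 0 genes by edgeR (0.0%, lowest adjusted p = 0.2, 1828 genes at an unadjusted p under 0.05), for 0 by limma-voom and for 5 by DESeq2. Without CD8 WT replicate 3 edgeR called 175 genes, and without any other single library 0. Values for single genes below are therefore given side by side and are not shown to be particular to KO. The 5 genes of DESeq2, named after their values were seen, were Smarcc1, Plac8 and the predicted genes Gm14173, Gm22758 and Gm5045. Smarcc1, a subunit of the SWI/SNF chromatin remodeller, had a log2 fold change of -0.46 in KO and 0.32 in WT (DESeq2 adjusted p = 0.0455 for the difference), and Plac8, a protein of activated lymphocytes, 0.76 in KO and -0.38 in WT.

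**Figure D5:**
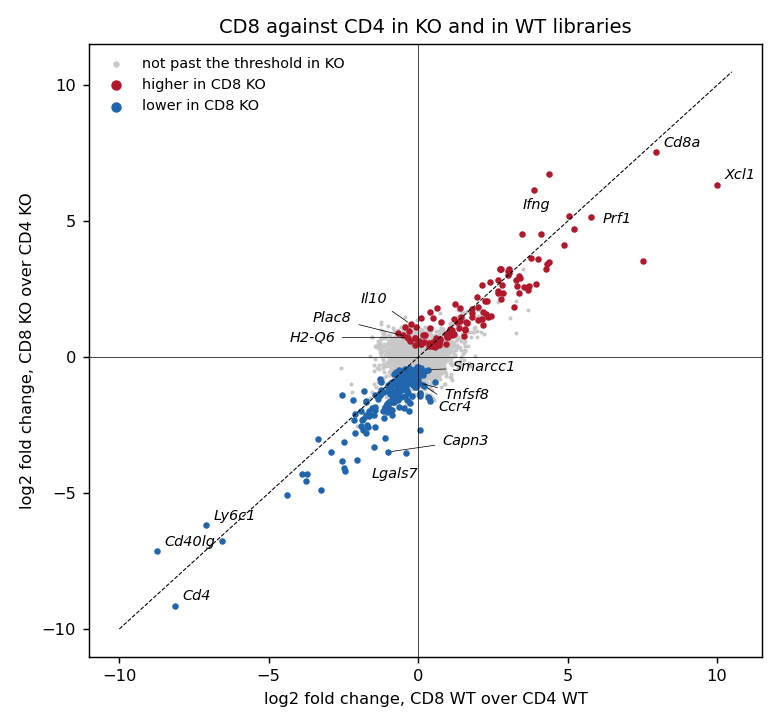
Log2 fold change of CD8 over CD4 in KO libraries (vertical axis) against the same in WT libraries (horizontal axis) for the 11276 genes tested, with KO calls in red (higher) and blue (lower), and the line of equal values dashed. The genes furthest from 0, such as Cd8a, Prf1 and Ifng, lie near the line, a few moderate calls such as Il10, Ccr4 and Tnfsf8 have WT values near 0, and the fitted value of a gene with 0 to 3 counts in a group (Xcl1 in WT, Cd4, Cd40lg) depends on the prior count of the fit.

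For Prf1, Ifng and Gzmb the difference between the genotypes was small beside the difference between the cell types. Prf1 had 128.1, 118.1 and 94.5 CPM in CD8 WT, against 1.49, 2.51 and 1.73 CPM in CD4 WT, and its log2 fold change differed between KO and WT by -0.66 (SE 0.63, unadjusted p = 0.304 by edgeR). For Ifng the difference between KO and WT was 0.12 (SE 0.46, unadjusted p = 0.804, edgeR) and for Gzmb 0.18 (SE 0.50, unadjusted p = 0.719, edgeR). The difference was larger for Il24, at -0.93 (SE 0.43, edgeR unadjusted p = 0.0467, adjusted p = 0.301). For Xcl1, with 0 counts in CD4 WT, it was -3.68 (SE 1.51, edgeR unadjusted p = 0.0251, adjusted p = 0.248). For some moderate calls it was as large as the KO value itself. Ccr4, a receptor of type 2 and skin-homing cells, had 22.1, 21 and 22.9 CPM in CD8 KO, against 51.4, 36.5 and 48.3 CPM in CD4 KO, and 37.6, 36.3 and 30.3 CPM in CD8 WT, against 13.4, 39.7 and 33.5 CPM in CD4 WT. Its log2 fold change was -1.05 in KO (edgeR adjusted p = 0.0202, lost without any library but CD4 KO replicate 2, up to 0.116) and 0.21 in WT, a difference of -1.26 (SE 0.35, unadjusted p = 0.00185, adjusted p = 0.2). H2-Q6, an MHC class I gene with close relatives, had 62.9, 68.8 and 79.5 CPM in CD8 KO, against 36.8, 52.7 and 39.6 CPM in CD4 KO, and 40.6, 45.6 and 55.1 CPM in CD8 WT, against 70.8, 51.7 and 57.2 CPM in CD4 WT. Its log2 fold change was 0.72 in KO (adjusted p = 0.0184) and -0.33 in WT, a difference of 1.05 (SE 0.24, unadjusted p = 2.82e-04, adjusted p = 0.2). The KO call of H2-Q6 was lost without CD8 KO replicate 2 or 3 or CD4 KO replicate 1 or 3 (up to 0.134). It was the 1 higher gene among 23 MHC class I presentation genes, beside 1.04% higher over all genes tested.

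Il10, Tnfsf8, Top2a and Lgals7 were further genes whose log2 fold change was unlike in KO and WT. None passed the interaction test, and neither these genes nor Ccr4 and H2-Q6 were picked for it by a rule set beforehand. Il10 had 8.23, 8.29 and 11.1 CPM in CD8 WT and 13.4, 9.54 and 10.4 CPM in CD4 WT, so the excess of CD8 KO over CD4 KO (1.21) stood against -0.24 in WT (difference 1.45, SE 0.41, edgeR unadjusted p = 0.00214, adjusted p = 0.2). Tnfsf8 was -0.95 in KO and 0.04 in WT (difference -0.99, SE 0.26, edgeR unadjusted p = 0.00108, adjusted p = 0.2). Top2a had 1147, 1112 and 904.8 CPM in CD8 WT and 928.0, 1232 and 1034 CPM in CD4 WT, which overlap, and its difference between KO and WT was -0.58 (SE 0.17, edgeR unadjusted p = 0.00343, adjusted p = 0.2). The median over the G2 and M phase genes was -0.32 in KO and 0.10 in WT, over the S phase genes -0.18 in KO and 0.27 in WT, and over the T cell receptor genes -0.39 in KO and 0.08 in WT. Lgals7 was lower in CD8 in both genotypes, by -3.79 in KO and -2.05 in WT (difference -1.74, SE 0.51, edgeR unadjusted p = 0.00293, adjusted p = 0.2). For the B cell markers the median log2 fold change was 0.39 in KO, where all 22 were positive, and -0.46 in WT. These signs are opposite to those of the list medians above. By edgeR 0 of 22 passed in either, and in KO 1 was at an unadjusted p under 0.05 and 0 passed by DESeq2 or limma-voom. Their part in the differences between the genotypes was not tested.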

How the data were processed

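The authors deposited raw counts per Ensembl gene for 55487 genes in 18 libraries made from 500 ng of RNA each. The genome build was GRCm38 (mm10) and the tools were STAR 2.5.3a, cutadapt 2.10, Subread 2.0.0 with featureCounts, UMI-tools 1.0.0 and FastQC, per the submitters' processing notes. How they were set, strand included, is not given in the sources used here. Names and positions came from GENCODE M21 on GRCm38 (55227 genes matched), and promoter sequences from RefSeq on GRCm38.p6. All columns belonged to labelled libraries (0 unused).

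The 12 CD8 and CD4 libraries (1358671 to 2255950 counts) were fitted with edgeR 4.0.16 under R 4.3.3: filterByExpr with a minimum count of 10 (11276 genes), TMM, glmQLFit (robust) on 4 group means with 8 residual degrees of freedom, glmQLFTest, and Benjamini-Hochberg adjustment at 0.05 over all genes. The common dispersion was 0.0121. Standard errors are the log2 fold change divided by the square root of F. Where a group held few counts, such an SE can lie below the counting error. Cd8a, with 5 counts in CD4 KO, had an SE of 0.31 in KO and in WT but 1.0 for their difference. Xcl1, Stra6 and Lgals7 also had few counts in a group. The 6 Treg-labelled libraries stayed out of the fit. Pairs among them had earlier been found to differ by less than sampling noise, which would narrow the shared spread. Among the 12 CD8 and CD4 libraries no replicate pair differed by less than sampling noise (chi-square per gene 1.502 to 5.3). Permuting 3 against 3 libraries exactly allows no p below 0.1, hence the model across genes. Intervals (95%, exact) cover counting error only. The fitting functions were tested on simulated counts with known changes set in CD8 KO alone. Alternatives were RLE scaling, no filter, DESeq2 1.42.0, limma-voom (limma 3.58.1), all 18 libraries, only the 6 libraries compared, a fold threshold of 1.5, a replicate block and leaving out each library.

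The text names Cd8a, Cd8b1, Cd4, Zbtb7b, Runx3, Ebi3 and Foxp3, the 12 largest rises and 12 largest falls among called genes whose groups do not overlap and whose mean is at least 2 in log2 CPM (predicted genes passed over), and up to 4 called members of each list per direction. Defining members of a list are also given where they missed the threshold. The members and the 37 gene lists were chosen with earlier results of these data known. Some genes that the rule names are not reported here.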

Additional observations from a re-analysis of the deposited data

Results flagged for a closer look

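The 3 libraries labelled Treg KO, which enter no comparison here, held RNA of both coreceptors. Their lowest level of Cd8a was 22.7 CPM (38.1, 22.7 and 39.6 CPM in Treg KO replicates 1 to 3), above every CD4 KO library. Their lowest level of Cd8b1 was 30.6 CPM, again above every CD4 KO library, and their lowest level of Cd4 was 32.8 CPM, above every CD8 KO library. Ifng (33.6, 28.9 and 52.0 CPM) and Prf1 (13.5, 21 and 15.8 CPM) in Treg KO lay above all CD4 KO and below all CD8 KO libraries. Cd40lg, at 16.8, 25.4 and 26.0 CPM in Treg KO, lay above all CD8 KO libraries. These levels were scaled over all 18 libraries, and what they come from was not tested.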

How the results depend on the processing

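Of the 84 named genes past the threshold in CD8 KO against CD4 KO, 0 changed direction under any alternative, 44 kept their call under every alternative run, and 40 lost it under at least 1, 8 of them only under the fold threshold of 1.5. Leaving out each of the 6 libraries in turn kept 53 of the 84 and lost 31 at least once. The 361 calls became 588 with no filter on low counts (24381 genes tested), 112 with the fold threshold of 1.5 and 202 to 289 without 1 library. The lower genes outnumbered the higher ones under each of these alternatives, most nearly evenly at the fold threshold (53 higher and 59 lower) and without CD8 KO replicate 3 (98 higher and 120 lower). The WT calls (388) became 844 with no filter, 682 with all 18 libraries, 226 with only the libraries compared, 104 with the fold threshold and 183 to 737 without 1 library. The KO minus WT difference (0 genes) became 507 with no filter, 5 with DESeq2 and 0 to 175 without 1 library; apart from the number of genes tested, the cause was not tested. Deviations of same-numbered CD8 and CD4 libraries correlated at -0.011, -0.283 and -0.179 in KO, and those of differently numbered ones at -0.142 to 0.321. Deviations from the mean of so few libraries cannot show whether the replicate numbers pair libraries. A replicate block gave 205 calls in KO, 213 in WT and 0 for the difference. At this depth genes under about 2 CPM rest on 3 or fewer counts a library.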

Other observations

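Lists of metabolism and survival showed few calls between CD8 KO and CD4 KO, beside 361 calls (3.2%) over all genes tested. No gene passed by edgeR among 35 tested glycolysis and hypoxia genes (median log2 fold change -0.15), 35 sterol and fatty acid synthesis genes (-0.18), 37 amino acid transport, stress and unfolded protein genes (0.05), 45 nuclear-encoded oxidative phosphorylation genes (-0.02), 77 cytosolic ribosomal protein genes (0.01), 14 BCL2 family genes (0.09) or 8 GIMAP GTPases (0.01). DESeq2 and limma-voom called 0 genes of these lists too, and 8, 5, 5, 1, 6, 3 and 1 of their members, in that order, were at an unadjusted p under 0.05 by edgeR. The share of all counts in ribosomal protein genes was 9.58%, 9.53% and 10.2% in CD8 KO libraries, against 9.95%, 9.88% and 9.58% in CD4 KO libraries. Of 14 tested type 2 genes 2 were higher (Il24 and Il10) and 5 lower (median -0.53), among them Ecm1, an extracellular matrix protein (-1.41, edgeR adjusted p = 0.0186, lost without CD8 KO replicate 1 or 3 or CD4 KO replicate 1 or 3, up to 0.115). Of 13 tested follicular helper genes 4 were lower and 0 higher (median -0.11), and of 7 tested type 17 genes 1, Il6ra, was lower (median -0.26). Of the 6 tested myeloid and dendritic cell markers 0 passed by edgeR, DESeq2 or limma-voom and 3 were at an unadjusted p under 0.05, and their list of 26 summed to 78.84, 56.76 and 83.41 CPM in CD8 KO and 42.75, 60.18 and 40.56 CPM in CD4 KO. Of 8 tested erythroid and platelet markers Hemgn was higher and Tfrc, the transferrin receptor that dividing T cells also carry, was lower (-0.58, edgeR adjusted p = 0.0228, lost without any library but CD8 KO replicate 2, up to 0.132).

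RNA of Xist and of the Y-linked Ddx3y and Kdm5d was counted in all 12 CD8 and CD4 libraries. Xist had 662.2, 693.2 and 451.7 CPM in CD8 KO and 765.8, 717.3 and 633.0 CPM in CD4 KO, and Ddx3y had 17.6, 16.3 and 25.4 CPM in CD8 KO and 11.8, 20.4 and 18.3 CPM in CD4 KO.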
